A study of Oryza sativa with 16 samples.

Results

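Callus of the rice (Oryza sativa) japonica variety Nipponbare was compared with Nipponbare shoot on 4 of the 16 microarrays of the series. These are the arrays whose titles name callus, and they cover 2 array sets and 2 replicates. Every array carried callus RNA in one dye and shoot RNA in the other, and the value compared is the log2 ratio of callus signal to shoot signal at each spot, so that a positive value is higher in callus. The 2 array sets together held 83040 different probes of 60 bases, of which 82998 could be tested. The other arrays set Nipponbare root, Nipponbare panicle and shoot of the indica variety IR64 against Nipponbare shoot in the same way, and they entered the same fit.

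The callus had grown for 28 days at 30 °C under 24 hours of cool white fluorescent light a day, on a solid callus induction medium in a growth chamber. According to the methods it originated from the scutellum and was kept on MS medium with the synthetic auxin 2,4-dichlorophenoxyacetic acid. The roots came from 10-day seedlings grown in hydroculture in a growth chamber, and the panicles were collected in the field at the late-boot stage. The shoots were taken from greenhouse plants grown in soil under natural light, with a growth length of 10 days in the labels, whereas the methods state another age. The methods state that RNA of 10 plants was pooled for a sample. RNA of callus, root and panicle was extracted with a column kit (RNeasy Midi) and RNA of shoot with Trizol, so that tissue, growth conditions and extraction cannot be told apart. The labels name 2 callus extracts, 1 per replicate, but the same shoot extract in both callus replicates, unlike the first replicates of the other comparisons, and a slip in the labels cannot be told apart from the design. The description of the set 1 array of replicate 1 names a comparison of the varieties, at odds with its title and source names, which were used. Whether the callus extracts came from separate cultures is not stated, and the p-values measure the spread between these samples only.

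Callus is a mass of unorganized, dividing cells that plant tissue forms when it is kept on a medium with auxin. In rice it is usually raised from the scutellum, the absorbing organ of the embryo, and it is the common starting material for transformation and plant regeneration. A shoot of a young plant consists mostly of green leaf blades and sheaths, whose most abundant transcripts belong to photosynthesis, while callus cells live on the sugar of the medium. In such bulk samples, fewer cells of a type and less RNA per cell cannot be told apart.

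The probes were designed from several kinds of sequence, which the design distinguishes by name. FL-cDNA loci are genome regions to which full-length cDNA clones were mapped, and they carry common probes (names ending in C), variant probes (names ending in S and a number) and a further class of probes whose names begin with E5. Other probes lie on single FL-cDNA clones, on the class that the design names END3TU (called 3'-end units here), and on predicted gene models of the class ENDS (ENDS models) or of the coding sequence (CDS models). The files explain neither END3TU, ENDS nor E5, and they pair no identifier with a gene name. The results are therefore given by identifier, in which the number after R is the chromosome. Probe sequences are not used here.

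The 4 callus arrays were alike in brightness. The median processed signal of the 42034 probes on an array lay between 918 and 1030 in callus and between 886 and 991 in shoot. Between 90.7% and 95.5% of the probes were well above background in callus, against 86.1% to 89.2% in shoot. Between 38 and 364 probes were saturated in callus and between 85 and 220 in shoot, and the median log2 ratio of an array lay between -0.08 and -0.01. Replicate 1 carried callus in Cy3 and replicate 2 carried it in Cy5, so that the replicate and the dye cannot be told apart. Of the 81975 probes with a ratio in both replicates, 83.6% had the same sign in both, and the median SD between the replicates was 0.20 on the log2 scale. The 1028 probes present on both array sets allowed a second check. Their log2 ratio on set 1 exceeded that on set 2 by a median of 0.09 in replicate 1 and 0.12 in replicate 2.

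A control sequence that the arrays name CAB was spotted 98 times on each array. In callus replicate 1 its signals per array ranged from 488.5 to 657.5 in callus and from 15700 to 24700 in shoot, and in replicate 2 from 965.5 to 1110.0 in callus and from 39400 to 41650 in shoot. Callus lay far below shoot on all 4 arrays, with a log2 ratio of -5.18 ± 0.17 (SD, n = 2). The ratio of the same control was -4.50 ± 0.13 for root, -2.80 ± 0.22 for panicle and 0.25 ± 0.17 for the IR64 shoot (SD, n = 2 each). The files do not explain the name of this control, and no other marker of a cell type is named on the arrays.

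Nearly as many probes were higher in callus as were lower, but the falls went further than the rises. The software had balanced both dyes of each array, which centres the ratios of an array. The near-equal split can therefore not be told apart from this processing. At a limma adjusted p under 0.05, 20650 probes were higher in callus than in shoot (24.9% of those tested) and 20412 were lower (24.6%), so that 41062 probes differed (49.5%). All 40754 of these that had a ratio in both replicates had the same sign in both, and the other 308 had a ratio in 1 replicate. A call weighs the mean of the replicate ratios against their spread, so the shared sign mostly follows from the call. With 1 callus replicate left out, 14681 to 15157 probes were higher, and 13171 (without replicate 1) to 13711 were lower. More probes rose than fell over 2-fold (15127 against 11406) and over 4-fold (6167 against 4845). Over 16-fold the order was the opposite, with 519 rises and 1393 falls, and over 64-fold there were 13 rises and 183 falls. The excess of falls over 16-fold and over 64-fold was found under each of the 10 alternative settings. The order over 4-fold was the opposite after normexp background correction, with 3260 rises and 3642 falls, and no rise then exceeded 64-fold (0, against 126 falls). The fitted log2 ratios extended down to -7.78 and up to 6.59.

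**Figure D1:**
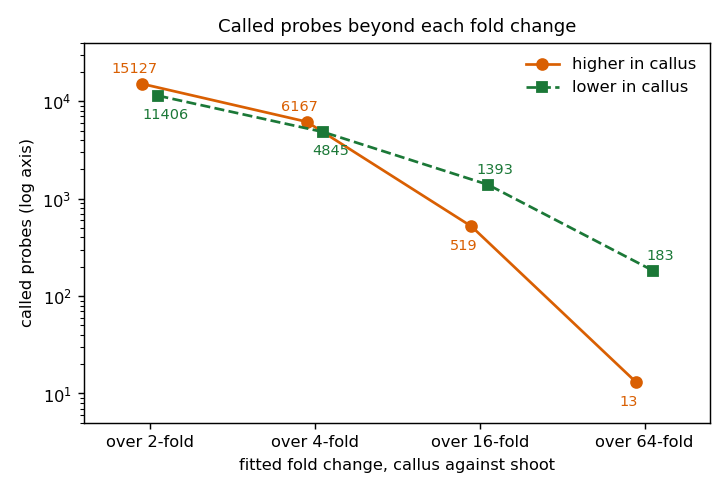
Number of probes called higher (circles) and lower (squares) in callus than in shoot beyond each fitted fold change, on a log axis. The rises outnumber the falls over 2-fold and over 4-fold, and the falls outnumber the rises over 16-fold (1393 against 519 rises) and over 64-fold (183 against 13 rises).

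The share of called probes depended on the brightness of a spot. When the probes were ranked by signal and cut into 10 equal bins, in the dimmest bin, 3.88% were higher in callus and 4.02% lower, and the median SD between replicates was 0.39. In bin 7 this SD was 0.16, and in the brightest bin, where 39.0% were higher and 34.7% lower, it was 0.28. Kinds of probe that differ in brightness are therefore not equally able to give a call. The median processed signal was 1557 in callus and 1365 in shoot for FL-cDNA locus probes, and 988 in callus and 867 in shoot for 3'-end units. It was lower for the predicted models, with 326 in callus and 328 in shoot for ENDS models, and 206 in callus and 238 in shoot for CDS models.

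The kinds of design sequence differed in the direction of their calls. Probes of FL-cDNA loci were more often higher than lower in callus, with 34.3% higher and 27.5% lower of 37416 tested. Probes of CDS models were more often lower, with 9.34% higher and 21.7% lower of 21756. Among the probes well above background in all 4 channels of the callus arrays, 11.2% of the CDS models were higher and 28.0% lower. In the brightest of the 10 bins both directions turned, with 49.7% of 806 CDS models higher and 25.8% lower, and 36.4% of 5224 FL-cDNA locus probes higher and 37.5% lower. The median log2 ratio was 0.08 for FL-cDNA locus probes (0.05 in replicate 1 and 0.12 in replicate 2) and -0.19 for CDS models (-0.22 and -0.19). Over the same shoot tissue, these medians were 0.11 and -0.22 in root, and 0.12 and -0.23 in panicle. The 3'-end units had 32.3% higher and 25.6% lower of 8469. The ENDS models were close to balance, with 18.2% higher and 20.7% lower of 14329, and their order turned round with ratios centred on the array median (2737 higher and 2697 lower) and without callus replicate 2 (1815 higher and 1676 lower). Of the 1028 single FL-cDNA clones, whose probes are the brightest, 42.4% were higher and 24.7% lower. Their median log2 ratio was 0.11 in replicate 1 and 0.61 in replicate 2.

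Within the FL-cDNA loci, the common probes were the ones tilted toward callus. Of 20389 common probes, 41.5% were higher in callus and 25.6% lower, with a median log2 ratio of 0.30. The same probes had a median of 0.31 in root and 0.28 in panicle over shoot, so this tilt was not particular to callus. Of 12945 E5 probes, 25.7% were higher and 31.0% lower, with a median of -0.15, and of 4082 variant probes, 25.6% were higher and 26.2% lower. Most common probes lie on loci without an E5 probe. The 18132 loci without an E5 probe had a median log2 ratio of 0.36 at their common probe, whereas the 2257 loci with both classes had a median of -0.06 at the common probe and -0.16 at the E5 probes. Within those loci the common probe exceeded the E5 probes by a median of 0.03. The predominance of rises among FL-cDNA loci, common probes and clones, and of falls among E5 probes and CDS models, was found under all 10 alternative settings, and for variant probes the order changed with the setting.

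**Figure D2:**
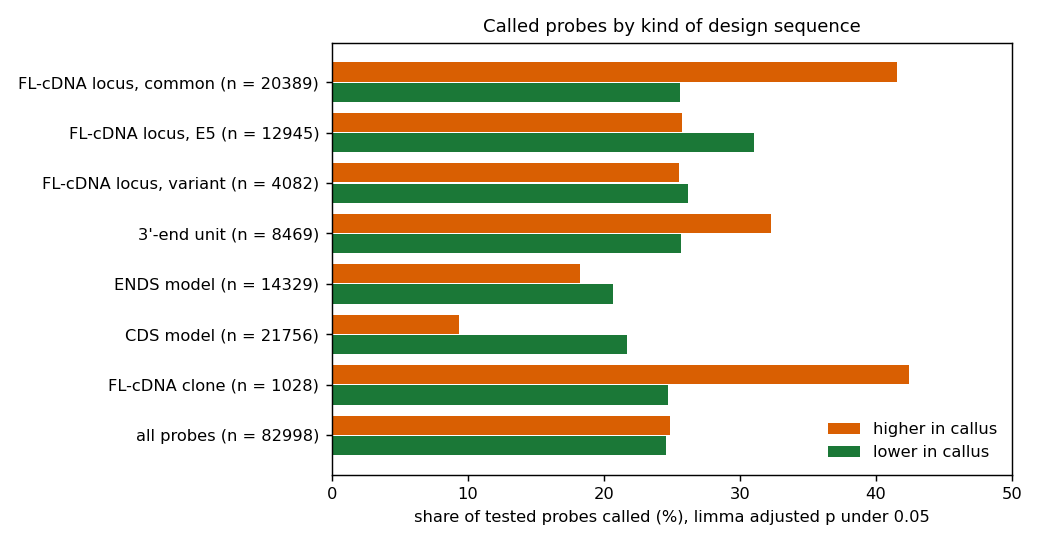
Share of the tested probes of each kind that limma called higher or lower in callus than in shoot (adjusted p under 0.05), with the number tested beside each name. Common probes and single clones show the larger share higher in callus (41.5% and 42.4%), and CDS models the larger share lower (21.7%, against 9.34% higher).

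The large changes in both directions came mostly from FL-cDNA loci and 3'-end units, which held 37416 and 8469 of the 82998 tested probes. In total, 519 probes rose and 1393 fell by over 16-fold. Over 16-fold, 398 FL-cDNA locus probes were higher in callus and 981 lower, 85 and 196 of the 3'-end units, 30 and 115 of the ENDS models, and 6 and 67 of the CDS models, with the count higher in callus first in each pair. None of the single clones rose over 16-fold and 34 fell. Falls thus outnumbered rises at this size in every kind of sequence.

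Along the genome, calls were spread over all chromosomes. Among FL-cDNA locus probes the share higher in callus ranged from 31.3% on chromosome 11 to 37.2% on chromosome 5, and the share lower ranged from 25.7% on chromosome 7 to 29.3% on chromosome 1. Among 3'-end units the share higher ranged from 30.0% on chromosome 10 to 34.0% on chromosome 9. The strands were alike, with 34.4% of the probes higher on the forward strand and 34.2% on the reverse strand. Neighboring loci in the numbering of the design had ratios of the same sign in 53.2% of 20223 pairs, against 50.8% for loci 50 numbers apart. These shares are descriptions without a test, since neighboring loci are not independent.

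The largest rises among FL-cDNA loci were found at probes that were bright in callus and dim in shoot. R09-00299F_C on chromosome 9 had signals of 14500 and 13000 in callus, against 175 and 140 in shoot, a log2 ratio of 6.45 ± 0.12 (SD, n = 2, limma adjusted p = 0.00041). R03-00602F_S1 had 9840 and 14100 in callus, against 136 and 210 in shoot (6.12 ± 0.08, adjusted p = 8.46e-06). R10-00315F_C had 26700 and 28100 in callus, against 368 and 446 in shoot (6.08 ± 0.14, adjusted p = 7.98e-06). At each of these probes every callus signal lay above every shoot signal, which follows from choosing the largest rises. The fitted folds ranged from 67.6 to 87.7. Of the 6 channels of Nipponbare shoot on the other arrays, R09-00299F_C and R03-00602F_S1 were above background in none, and R10-00315F_C in all 6. The other probe at the locus of R09-00299F_C, E5_07516, was also higher in callus, with 34600 and 26100 in callus against 2470 and 2810 in shoot, a smaller log2 ratio of 3.51 ± 0.42. The common probe R03-00602F_C at the locus of R03-00602F_S1 was higher as well, at 1.78 ± 0.05. A variant probe and a common probe of the same locus thus differed in size while sharing a direction.

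The 3'-end units with the largest rises reached similar levels. R07-E3TU-01075R had signals of 57400 and 53400 in callus, against 567 and 746 in shoot (log2 ratio 6.41 ± 0.35, SD, n = 2, adjusted p = 2.48e-05). R09-E3TU-00453F had 26300 and 26800 in callus, against 308 and 378 in shoot (6.28 ± 0.19, adjusted p = 1.6e-05). R03-E3TU-01292F had 6360 and 8480 in callus, against 139 and 182 in shoot (5.53 ± 0.02, adjusted p = 1.04e-05). The groups did not overlap at any of them, which again follows from the choice. Their ratios in the other tissues, taken over the same kind of shoot RNA, were unlike each other. R09-E3TU-00453F had log2 ratios of 0.00 in root and 0.26 in panicle, R07-E3TU-01075R had 3.19 and 4.88, and R03-E3TU-01292F had 5.36 and 2.95.

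Among the ENDS models, 9637.m02506_END had signals of 26900 and 28300 in callus, against 372 and 358 in shoot (log2 ratio 6.24 ± 0.09, SD, n = 2, adjusted p = 2.98e-05). 9635.m04819_END had 57900 and 57400 in callus, against 653 and 892 in shoot (6.24 ± 0.33, adjusted p = 1.64e-05). 9639.m03574_END had 20400 and 24200 in callus, against 856 and 933 in shoot (4.64 ± 0.09, adjusted p = 1.16e-05). The values of 9637.m02506_END lie close to those of R09-E3TU-00453F, and those of 9635.m04819_END close to those of R07-E3TU-01075R. Whether either pair lies on 1 transcript was not checked, so they are not counted as separate evidence.

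The CDS models rose less. 9637.m02325_CDS had signals of 7650 and 7620 in callus, against 163 and 206 in shoot (log2 ratio 5.38 ± 0.24, SD, n = 2, adjusted p = 0.000903). 9632.m05389_CDS was the brightest of the rises, with 167000 and 149000 in callus against 6500 and 3150 in shoot, and it had the widest spread (5.12 ± 0.62, adjusted p = 7.18e-05). 9634.m01547_CDS had 9750 and 13000 in callus, against 632 and 849 in shoot (3.94 ± 0.01, adjusted p = 6.36e-05). The fitted folds of these models ranged from 15.4 to 41.7, below the range of the FL-cDNA loci. The size of the rises depended on the background correction, since after normexp correction the log2 ratios of the 12 named rises lay between 3.29 and 5.52 instead of 3.94 to 6.45, and 11 of them had folds more than 1.5 times smaller.

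The largest falls were found at probes that were very bright in shoot. This follows in part from asking for a callus signal well above background. Among FL-cDNA loci, R01-01256F_C had signals of 397 and 436 in callus, against 76400 and 67100 in shoot (log2 ratio -7.43 ± 0.23, SD, n = 2, adjusted p = 5.74e-06). R04-00518R_C had 736 and 807 in callus, against 130000 in both replicates in shoot (-7.40 ± 0.09, adjusted p = 5.74e-06). R04-00822F_C had 1140 and 1470 in callus, against 166000 and 222000 in shoot (-7.21 ± 0.04, adjusted p = 5.9e-06). Even so, all 3 remained well above background in callus, as the rule for naming them asks.

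The 3'-end units with the largest falls behaved alike. R04-E3TU-00959F had signals of 191 and 144 in callus, against 33800 and 24300 in shoot (-7.43 ± 0.05, adjusted p = 5.74e-06). R12-E3TU-00615F had 1060 and 1100 in callus, against 179000 and 146000 in shoot (-7.23 ± 0.25, adjusted p = 5.9e-06). R02-E3TU-00136F had 978 and 911 in callus, against 141000 and 112000 in shoot (-7.06 ± 0.16, adjusted p = 5.74e-06). Each was also far below shoot in root and in panicle, with log2 ratios between -7.45 and -6.13.

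Among CDS models the falls were as deep, in contrast to their rises. 9632.m01509_CDS had signals of 915 and 1190 in callus, against 184000 and 245000 in shoot, which is 203-fold lower in callus (-7.67 ± 0.02, SD, n = 2, adjusted p = 5.74e-06). 9636.m03559_CDS had 2000 and 2420 in callus, against 341000 and 417000 in shoot (-7.42 ± 0.01, adjusted p = 6.16e-06). 9638.m01766_CDS had 1150 and 1410 in callus, against 193000 and 225000 in shoot (-7.35 ± 0.05, adjusted p = 5.74e-06). These falls were as deep as those of the named FL-cDNA loci, while in panicle their log2 ratios were between -4.56 and -4.44. The ENDS models fell slightly less. 9630.m03544_END had 1240 and 1690 in callus against 176000 and 226000 in shoot (-7.11 ± 0.06, adjusted p = 5.74e-06). 9631.m05816_END had 883 and 1000 in callus against 128000 in both replicates in shoot (-7.09 ± 0.13, adjusted p = 5.74e-06), and 9631.m04162_END had 1790 and 1230 in callus against 212000 and 161000 in shoot (-6.96 ± 0.10, adjusted p = 9.9e-06). None of the 12 named falls overlapped between callus and shoot, which follows from choosing the largest falls, and their SD was at most 0.25 on the log2 scale. After normexp correction their log2 ratios lay between -7.35 and -5.84, and 2 of the 12 had folds more than 1.5 times smaller.

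**Figure D3:**
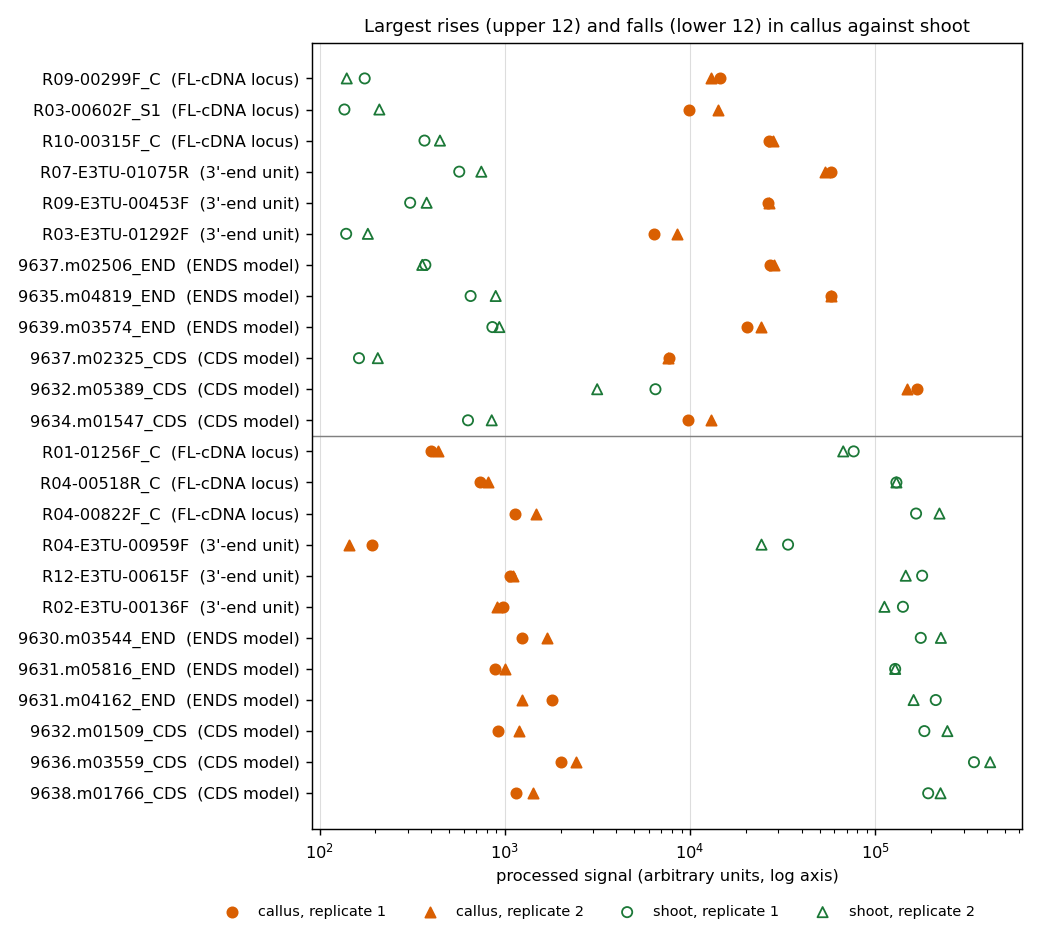
Processed signal (arbitrary units, log axis) of the 12 probes with the largest rises (upper rows of points) and the 12 with the largest falls (lower ones), 3 for each kind of sequence, in both replicates of callus (filled) and shoot (open). Callus and shoot signals do not overlap for any probe, which follows from choosing the largest changes. The shoot signals of the falls reach 417000.

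Many loci carried several probes, which gave more than 1 reading of the same locus on the same arrays. Of 5246 FL-cDNA loci with at least 2 tested probes, 1956 had called probes that were all higher in callus, 1831 had called probes that were all lower, 713 (13.6%) had called probes in both directions and 746 had no called probe. Among the 2590 loci with at least 3 probes, every probe was called higher at 201 loci and every probe lower at 263. At the 822 loci with at least 10 probes, the median SD among the probes of a locus was 0.55, against a median SD between replicates of 0.21. The probes of a locus therefore spread more than the replicates of a probe. Probes of a locus share the same RNA and many may overlap in sequence, so they are not replicates.

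The locus R02-CHRv2-00628F had the highest median among the loci with every probe higher. Its 6 probes had log2 ratios between 4.24 and 5.50, with a median of 5.25, and signals between 54200 and 202000 in callus, against 1220 to 15000 in shoot. The lowest of them, R02-00628F_C, did not pass the threshold without callus replicate 2, with a log2 ratio of 3.58 in replicate 1. On the other arrays, Nipponbare shoot was measured in 6 channels. The probes of R02-CHRv2-00628F were above background in 0 (E5_11498) to 6 (E5_12048) of these, and E5_12434 was saturated in 1 callus channel. At R03-CHRv2-01048F all 10 probes lay between 3.62 and 5.13, with a median of 4.62 and adjusted p-values of at most 6.19e-05. R03-CHRv2-00246F was dimmer, with signals of 1020 to 2550 in callus and 42.5 to 238 in shoot over 3 probes, of which E5_07774 was not well above background in shoot, and after normexp correction the log2 ratios of the 3 probes lay between 1.61 and 2.23 instead of 3.65 to 4.66. These loci differed in the other tissues, with median log2 ratios of 4.51 in root and 1.12 in panicle at R02-CHRv2-00628F, 2.83 and 1.48 at R03-CHRv2-01048F, and 0.27 and 1.58 at R03-CHRv2-00246F.

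Of the loci with every probe lower, R10-CHRv2-00435F had 10 probes with log2 ratios between -7.10 and -5.29 and a median of -6.54. Its brightest probe, R10-00435F_C, had signals of 3180 and 5230 in callus, against 367000 and 498000 in shoot. R12-CHRv2-00351F had 5 probes between -6.84 and -4.47, with a median of -6.15. At R01-CHRv2-00435R the 3 probes were saturated in shoot in both replicates, so that their folds are lower limits. R01-00435R_C had signals of 3450 and 7850 in callus, against 441000 and 1140000 in shoot, at least 136-fold lower in callus. Its neighbors E5_11156 and E5_10270 were at least 112-fold and at least 62.9-fold lower.

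At some loci, probes went in opposite directions between callus and shoot. Where a variant probe and the common probe of its locus were both called (1574 pairs), the direction was the same in 1288 and opposite in 286 (18.2%). For E5 probes against the common probe it was the same in 4636 and opposite in 562 (10.8% of 5198). When both were called, both changed over 2-fold and the variant was well above background, 72 of 763 variant probes went against the common probe. Probes in both directions, each over 2-fold and well above background, were found at 232 loci.

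In the processed signals, the widest gap was found at R12-CHRv2-00142F. Its variant probe R12-00142F_S2 had signals of 4470 and 4620 in callus, against 128 and 169 in shoot (log2 ratio 4.95 ± 0.25), whereas R12-00142F_S1 had 8080 and 9260 in callus, against 31600 and 53100 in shoot (-2.24 ± 0.39). The common probe R12-00142F_C was higher in callus (1.80 ± 0.43), as was R12-00142F_S3 (2.23 ± 0.12), and E5_00088 and E5_00174 did not pass the threshold, with 0.16 and 0.13. The probes S2 and S1 of the locus thus lay 7.19 apart on the log2 scale. The probe S2 was above background in none of the 6 channels of Nipponbare shoot on the other arrays. After normexp correction the log2 ratios of the locus ranged from -2.28 to 2.99.

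R02-CHRv2-00095F was split between its common and its variant probe. R02-00095F_C had signals of 3790 and 2850 in callus, against 473 and 413 in shoot (2.89 ± 0.15), and R02-00095F_S2 had 237 and 239 in callus, against 3500 and 5690 in shoot (-4.23 ± 0.49). The remaining probe R02-00095F_S1 did not pass the threshold (-0.25 ± 0.08). At R07-CHRv2-00167F, R07-00167F_S1 had 7760 and 8960 in callus, against 259 and 231 in shoot (5.09 ± 0.26), and E5_03162 had 8950 and 10800 in callus, against 33100 and 39900 in shoot (-1.89 ± 0.00). After normexp correction the log2 ratios ranged from -2.93 to 2.09 at R02-CHRv2-00095F and from -1.93 to 3.52 at R07-CHRv2-00167F. The files do not state which transcript each probe reads.

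**Figure D4:**
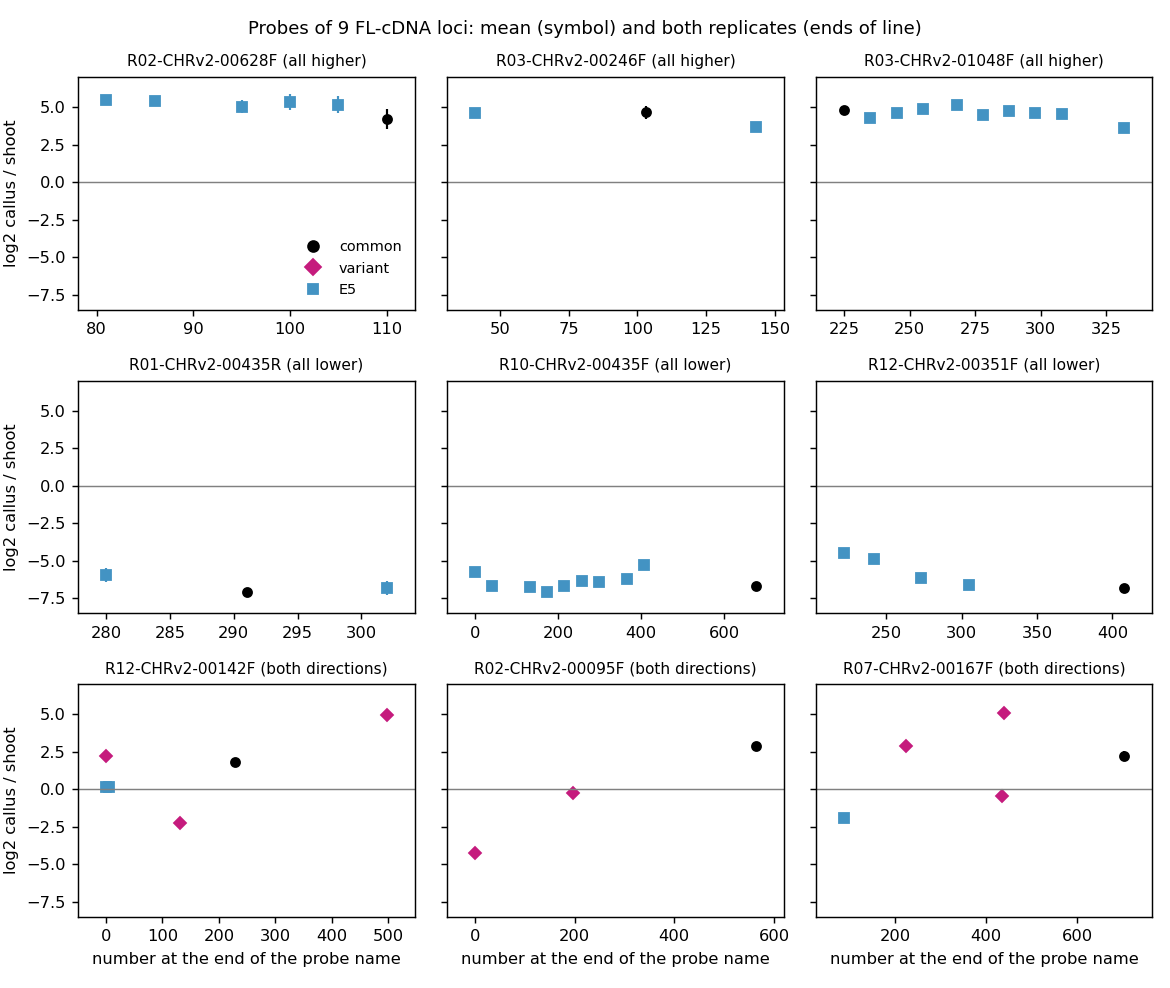
Log2 ratio of callus over shoot for each probe of 9 FL-cDNA loci against the number at the end of the probe name, which the files do not explain. Symbols are means by probe class and line ends are the 2 replicates. The lowest panels show loci whose probes go in both directions, such as R12-CHRv2-00142F with a gap of 7.19 before normexp correction.

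More probes were detected in callus only than in shoot only. Well above background on both replicates in one tissue and on neither replicate in the other were 2465 probes for callus and 202 for shoot, while 70393 probes (84.8%) were well above background in all 4 channels. Of the 2465 callus-only probes, 928 were called higher, and of the 202 shoot-only probes, 186 were called lower. Because the dim tissue then gives only a limit, folds are lower bounds, and the median bound was 1.54-fold for the callus-only probes and 3.35-fold for the shoot-only ones. The bound was over 2-fold for 828 of the callus-only probes and 185 of the shoot-only ones, and over 4-fold for 380 and 83, so that much of the callus-only list lay close to the background. When a single callus replicate was used, 4554 to 5201 probes were detected in callus only and 596 to 621 in shoot only. When a signal had to be only positive and significant to count as detected, the lists held 404 and 93 probes. On the other arrays, Nipponbare shoot was measured in 6 more channels, and 755 of the callus-only probes (30.6%) were well above background in none of these, whereas 104 of the shoot-only probes (51.5%) were so in all 6. The callus-only share was 2.25% of the FL-cDNA locus probes, 3.15% of the 3'-end units, 3.69% of the ENDS models and 3.79% of the CDS models. Of the callus-only probes, 350 were well above background in no root or panicle channel.

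The largest bounds for callus only belonged to 9638.m02723_END and E5_12521. 9638.m02723_END had signals of 3820 and 5850 in callus, against 59.5 and 65.3 in shoot, at least 56.8-fold higher in callus, and it differed from root by 0.25 (adjusted p = 0.76) and from panicle by 5.86 (adjusted p = 0.000352) on the log2 scale. It was above background in 2 of the 6 other shoot channels. E5_12521 had 5770 and 5920 in callus, against 101 and 111 in shoot, at least 55.2-fold higher, and was above background in none of the 6 other shoot channels. Its locus, R07-CHRv2-00591F, was less extreme elsewhere, with log2 ratios of 0.74 to 3.35 at the other E5 probes and -0.38 ± 0.09 at the common probe R07-00591F_C, which did not pass the threshold. These bounds hold for the processed signals. After normexp correction the log2 ratios were 3.24 for 9638.m02723_END and 3.33 for E5_12521, which are smaller folds than the bounds.

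For shoot only, R05-E3TU-00701R had signals of 67.4 and 73.6 in callus, against 3950 and 3660 in shoot, at least 53.9-fold lower in callus. R05-00114F_C had 41.7 and 35.1 in callus, against 2920 and 2240 in shoot, at least 46.0-fold lower. After normexp correction their log2 ratios were -3.20 and -2.76, again smaller folds than the bounds. These probes differed in the other tissues. R05-00114F_C had log2 ratios of 3.92 in root and 1.30 in panicle, while R05-E3TU-00701R had -2.58 in root and -0.78 in panicle.

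The ratios of root and panicle over shoot place the callus values among the tissues. These comparisons share the shoot, but by the labels callus replicate 1 was set against another shoot extract than root and panicle replicate 1. Each difference between tissues was tested as a contrast within the fit, which does not remove a difference between shoot extracts. Callus was higher than root at 7707 probes (9.29% of 82996) and lower at 7408 (8.93%). It was higher than panicle at 8283 probes (9.99% of 82918) and lower at 7760 (9.36%). Fewer probes passed than in callus against shoot, and these contrasts carry the spread of both tissues. With 1 callus replicate left out, 3146 to 3610 probes were higher and 3985 to 4425 lower than in root, and 3783 to 3800 were higher and 4347 to 5078 lower than in panicle.

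Higher in callus than in shoot, root and panicle alike were 4053 probes (4.88% of those tested), and 2303 were lower than in all of them (2.77%). With 1 callus replicate left out, 1517 to 1740 were higher and 1132 to 1422 lower. Of the 4053 and 2303, 2797 and 1536 had every difference over 2-fold, and 34 and 30 had every difference over 16-fold. The share above all 3 tissues was 6.56% of the FL-cDNA locus probes and 2.18% of the CDS models, and the share below all 3 was 4.42% and 0.46%. Of the 20650 probes higher in callus than in shoot, 6164 (29.8%) were also higher than in root and 1125 were lower than in root. Of the 20412 probes lower in callus than in shoot, 3722 (18.2%) were also lower than in root and 661 were higher than in root.

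Among probes well above background in all 4 channels of the callus arrays, the one that stood highest above both root and panicle was R02-01025R_C. It had signals of 57900 and 67400 in callus, against 3610 and 4130 in shoot (log2 ratio 4.02 ± 0.02, SD, n = 2), and it was below shoot in root (-2.75) and in panicle (-2.63). Callus exceeded root by 6.76 and panicle by 6.64 on the log2 scale, with adjusted p-values of 0.000236 and 0.000161. R09-E3TU-00453F and 9637.m02506_END followed, whose root and panicle ratios lay between 0.00 and 0.39 and which exceeded shoot by more than R02-01025R_C did. They were thus high in callus and near the shoot level in both other tissues.

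Among probes that pass the same limit, those that stood lowest were high in root and panicle. R05-E3TU-00181R had signals of 4410 and 3880 in callus, against 96100 and 68600 in shoot (-4.29 ± 0.21), and its log2 ratio was 2.56 in root and 2.46 in panicle. R02-00918F_C had 85.4 and 85.6 in callus, against 945 and 581 in shoot (-3.12 ± 0.50), with 3.55 in root and 2.95 in panicle, and after normexp correction its callus ratio was -1.19. E5_12932 had 321 and 319 in callus, against 4520 and 4150 in shoot (-3.76 ± 0.08), with 2.09 in root and 2.34 in panicle. All of the other 5 probes at its locus R03-CHRv2-01238F were lower in callus as well, with log2 ratios between -3.63 and -2.03, and higher in root and panicle, so that this locus read the same way at every probe.

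**Figure D5:**
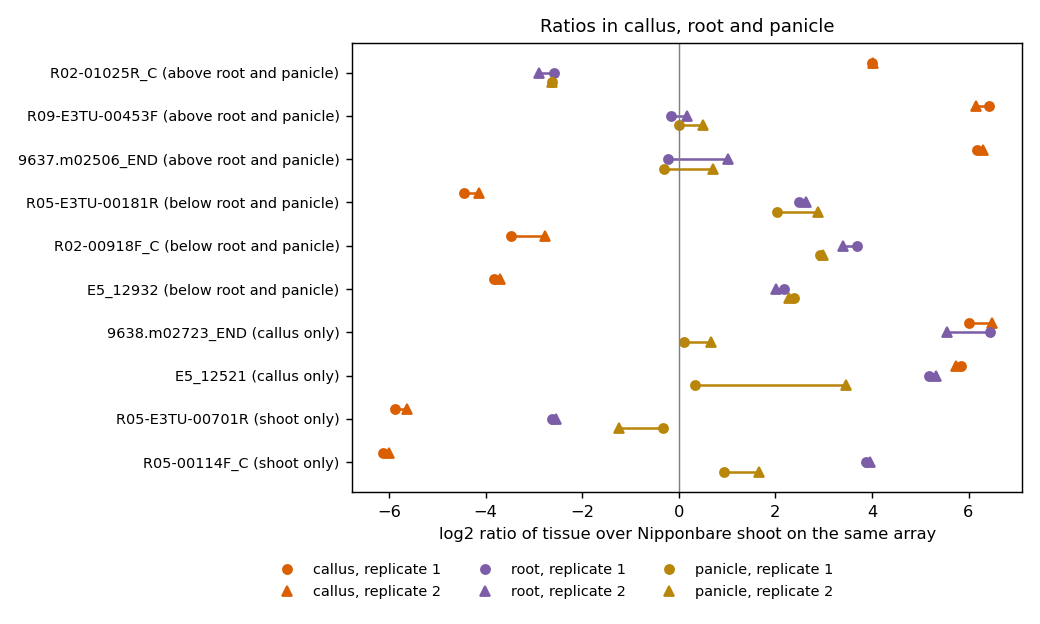
Log2 ratios of callus, root and panicle over Nipponbare shoot on the same array, both replicates (circles and triangles joined by a line), for the probes that differ most from root and panicle and for those detected in callus only or in shoot only. R02-01025R_C is above shoot in callus and below it in root and panicle, and R05-E3TU-00181R, R02-00918F_C and E5_12932 show the opposite pattern.

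For some single clones the study names a protein domain that the gene model encodes and the clone may lack, so that the domain describes the model and not what the clone carries. AK059443 (model LOC_Os04g42020, excluded domain B-box, a zinc-binding domain found in plant transcription regulators) had signals of 21650 and 33000 in callus, against 300000 and 261000 in shoot, a log2 ratio of -3.39 ± 0.57 (SD, n = 2, adjusted p = 5.44e-05). Its ratios were also low in root (-3.43) and panicle (-3.10). AK058489 (model LOC_Os08g37370, excluded domain of the mitochondrial carriers, which move metabolites across the inner mitochondrial membrane) had 36000 and 43850 in callus, against 115000 and 138000 in shoot (-1.68 ± 0.00, adjusted p = 0.000333). In root and panicle its ratios were -0.15 and -0.55, and callus differed from root by -1.53 (adjusted p = 0.00798). AK058349 (model LOC_Os03g08500, excluded domain AP2, the DNA-binding domain of a large family of plant transcription factors) had 250000 and 208500 in callus, against 213500 and 80600 in shoot (0.80 ± 0.80, adjusted p = 0.0415). Its callus and shoot signals overlapped between replicates, 1 of its channels was saturated, and it did not pass the threshold without callus replicate 2, with a log2 ratio of 0.24.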

How the data were processed

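Signals were read from the deposited scanner files. The intensity values were made by the authors with Agilent Feature Extraction (8.1.1.1 per the file headers, 7.5 in the submitters' processing notes), which subtracted a spatially detrended background and then balanced both dyes of an array (linear and LOWESS, on probes of consistent rank), without scaling between arrays. The mean pixel and local background signals are deposited intensities without normalization. The deposited log10 ratios come from the same software run. The deposited flags mark signals significant (p under 0.01), well above background (over 2.6 background SDs), saturated or outlying. The number of arrays limits the precision.

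The log2 ratio of callus over shoot was taken from the processed signals by the dye in the labels, without spots marked as outliers (56 to 805 per array). The 1028 probes shared by the sets were averaged. Ratios were fitted with limma 3.58.1 in R 4.3.3, separately for each set of 8 arrays, with 1 coefficient per tissue and no term for the dye, followed by empirical Bayes moderation. P-values were adjusted by Benjamini-Hochberg over both sets, with a threshold of 0.05. The script was tested on simulated data. Spread and p-values come from all 4 comparisons. Probes with 1 usable callus replicate entered with that replicate. Lower bounds on folds used channels after loess and Aquantile normalization, with the dim probe set to the lowest signal well above background or to its own, whichever was higher, and are open to dye bias. No scan day held arrays of different tissues, so scan and tissue cannot be told apart.

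Named per kind of sequence were the 3 largest rises and the 3 largest falls among called probes of the same sign in both replicates, well above background and unsaturated in all 4 channels and without outlier spots. Further named were the 3 loci with the highest and the 3 with the lowest median among those with at least 3 probes all called in one direction, the 3 loci with the widest gap, the 2 largest bounds of each detection list, the 3 probes standing farthest above and below root and panicle among those with the same limits on signal, and 3 clones listed in the study with an excluded domain. Other probes at these loci were added after their values were seen. The members and lists were chosen with earlier results of these data known. Marker and pathway lists could not be applied, because no table used here names the genes. The alternatives were normexp background correction (offset 50) with loess, ratios centred per array, the deposited ratios, bright probes only, a replicate block, fits on the callus arrays or without IR64, leaving out each callus replicate, and keeping outlier spots.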

Additional observations from a re-analysis of the deposited data

Results flagged for a closer look

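The differences between callus and another tissue below have every array of callus on one side of shoot and every array of root or panicle on the other. In each, the difference passed the limma contrast, and both ratios over shoot passed the threshold as well. They are 25 differences at 14 of the named probes, given as the log2 ratio over shoot in callus minus that in the other tissue. Named probes without a passing ratio over shoot in both tissues are left out, such as E5_10402, which was higher in callus than in panicle by 3.85. R02-01025R_C was higher in callus than in root by 6.76 and than in panicle by 6.64, and E5_07516, at the locus of R09-00299F_C, was higher by 4.83 and 4.86. R09-00299F_C itself had log2 ratios over shoot of 2.45 in root and 0.61 in panicle, against -1.31 and -1.35 at E5_07516. The probes of this locus thus differed in the other tissues. Against panicle, E5_12048 was higher by 5.69, R12-00142F_S3 by 2.97 and E5_03472 by 2.57, while in root these probes lay on the same side of shoot as in callus. The lowest difference belonged to R05-00114F_C, with -9.98 against root and -7.37 against panicle, values measured while its callus signal was not well above background. R05-E3TU-00181R had -6.86 against root and -6.75 against panicle, and R02-00918F_C had -6.66 and -6.07.

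All 6 probes of the locus R03-CHRv2-01238F were among them. E5_12932 had -5.85 against root and -6.10 against panicle, and R03-01238F_C had -5.69 and -5.99. E5_09711 had -5.25 and -5.36, and E5_12133 had -4.85 and -5.13. The smallest of the locus were E5_10517 with -4.67 and -4.88, and E5_11315 with -4.23 and -4.34. Several of these probes were chosen for standing apart from root and panicle.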

How the results depend on the processing

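The limits of these data are the 2 replicates, the shoot extract, which the labels give as the same in both, and the dye, which goes with the replicate. Between the 10 alternatives, the share of calls that were higher in callus ranged from 48.6% to 53.5%. All of them used ratios balanced between the dyes or centred, so this range does not test the near-equal split. Without callus replicate 1 or 2 the fit takes its spread from the other comparisons, on the assumption that the lone callus array varies like them. Higher than shoot were then 14681 to 15157 probes and lower 13171 to 13711. Higher than root were 3146 to 3610 probes and lower 3985 to 4425, higher than panicle 3783 to 3800 and lower 4347 to 5078. Above shoot, root and panicle were 1517 to 1740 probes and below all of them 1132 to 1422. Detected in callus only were 4554 to 5201 probes and in shoot only 596 to 621. After normexp background correction, 11903 probes were higher in callus than in root and 7611 higher than in shoot, root and panicle. When a positive and significant signal sufficed for detection, 404 probes were detected in callus only and 93 in shoot only. With a fold change above 2, 266 loci had called probes in both directions. The cause of these changes was not tested, except that a fold limit leaves fewer calls, and a single replicate demands less of a detected probe, by construction. Of 602 values of the named probes under the alternatives, 599 kept their direction and call, but sizes changed. After normexp correction, 30 of 86 named probes had folds more than 1.5 times smaller and none larger. The 3 calls lost are those of AK058349 with only the callus arrays and without replicate 2, and R02-00628F_C without replicate 2. The settings for comparisons with all 3 tissues were chosen after seeing the data.

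The replicate numbers were checked for pairing. The difference between the callus replicates correlated across probes with that of root (r = 0.469 and 0.494 on the 2 array sets), panicle (0.248 and 0.459) and IR64 (0.221 and 0.213), where dye and number are shared. A replicate term passed the threshold for 131 of 83039 probes (17090 at an unadjusted p under 0.05, limma). With a replicate block, 22450 probes were higher and 22989 lower in callus than in shoot, 9904 and 9227 than in root, 10569 and 9538 than in panicle, and 5275 and 3029 than in all of them, and no count moved by over 1.5 times.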

Other observations

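The arrays carry further control sequences that enter no comparison, and the files do not explain their names. The control COR had a mean log2 ratio of callus over shoot of 0.00 in replicate 1 and 0.41 in replicate 2, the control SIG had -0.85 and -0.49, and the control C1, with signals of 27.4 to 55.8 in callus and 29.9 to 58.6 in shoot, had -0.30 and 0.69. Each was higher in replicate 2, in which callus carried Cy5, than in replicate 1.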
